A study of Mus musculus with 12 samples.

Results

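The genes followed here are Ccdc3, Kif21b, Tnfrsf21, Slc5a3 and Slc12a2, 5 of 15209 protein-coding genes listed for postnatal day 14 (P14) and of 15334 listed for P16. They were chosen by name because they already differed at P14 between the dermal papilla (DP) of control mice and that of mice lacking Fgfr1 and Fgfr2 there. The P14 libraries therefore describe these genes and give no test of them, and the tested comparison is that at P16, whose libraries do not enter the stated rule. Earlier results of these data were nevertheless known when the genes were listed, so the P16 test is not wholly independent of the choice. All 5 were listed on both days and exceeded the minimum mean of 10 normalized reads in each of the 4 groups, the lowest single value being 72.8.

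DP cells were sorted from dissociated mouse dorsal skin in anagen, the growth phase of the hair cycle, by a YFP reporter at the ROSA26 locus that Cre recombination switches on. Each of the 4 groups (P14 control, P14 dMF1/2, P16 control, P16 dMF1/2) held 3 libraries, which the study states came from 3 mice per group, and other ages were not analysed here. The dMF1/2 mutant is Cor-cre/+; Fgfr1Flox/Flox; Fgfr2Flox/Flox, in which a Cre knocked into Corin removes both receptors in the DP after birth. Controls are labelled wild type, whereas the study lists them as Cor-cre/+ mice with 1 floxed copy of each receptor or as Cre-negative mice with floxed receptors. Since the reporter needs Cre, control cells sorted on YFP should carry Cor-cre and a heterozygous deletion, so that the comparison is of 0 against 1 remaining copy, although the genotype of each library was not given in the labels.

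The DP is a cluster of fibroblasts at the base of the hair follicle that signals to the epithelial matrix cells which build the hair shaft. FGF receptors signal through ERK, and the ETS factors Etv1, Etv4 and Etv5 and the phosphatase Dusp6 are well-known transcriptional readouts of that pathway. Slc12a2 encodes NKCC1, the sodium-potassium-chloride cotransporter that loads cells with chloride and restores volume after shrinkage, and Slc5a3 encodes SMIT1, which imports the osmolyte myo-inositol with sodium. Tnfrsf21 encodes death receptor 6, a TNF receptor family member studied in axon pruning, Kif21b encodes a kinesin-4 family motor that walks along and regulates microtubules, and Ccdc3 encodes a secreted coiled-coil protein known from endothelium and fat.

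All 5 lie on the plus strand of GRCm38, the assembly to which the deposited coordinates belong. Ccdc3 (ENSMUSG00000026676) spans chr2:5137776-5230878, Kif21b (ENSMUSG00000041642) chr1:136131389-136177998 and Tnfrsf21 (ENSMUSG00000023915) chr17:43016555-43089188. Slc5a3 (ENSMUSG00000089774) spans chr16:92058322-92087473 and Slc12a2 (ENSMUSG00000024597) chr18:57878678-57946821.

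Annotation overlaps matter for 2 of them. The antisense lincRNA Gm26776 covers 1845 of the 2670 exonic bases of Ccdc3 on the opposite strand. The study made its libraries with a directional kit, but the strand setting of the read counter is not given in the sources used here. Whether reads of the pair were kept apart is therefore not known. The pseudogene Gm13198 lies in an intron of Ccdc3. Slc5a3 lies within Mrps6 (chr16:92058270-92112227, same strand), a gene for a mitochondrial ribosomal protein, with 159 shared exonic bases, so that unspliced Mrps6 RNA would be counted for Slc5a3. The gene model Gm49711, on the same strand, shares the same number of exonic bases with Slc5a3, and it was not analysed here.

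The start regions of Slc5a3, Ccdc3 and Tnfrsf21 are shown because the first serves a pair of genes that both appear in the results. In RefSeq the starts of Slc5a3 and Mrps6 are 14 bases apart on the same strand, and in the deposited annotation 52 bases. The stretches below end before the first annotated start of the protein-coding genes, are taken from the RefSeq promoter table on GRCm38.p6, which held 3 of the 5 genes, and carry the letters GGGCGG or their reverse complement (the GC box) in capitals.
Slc5a3, chr16:92058072-92058269, plus strand: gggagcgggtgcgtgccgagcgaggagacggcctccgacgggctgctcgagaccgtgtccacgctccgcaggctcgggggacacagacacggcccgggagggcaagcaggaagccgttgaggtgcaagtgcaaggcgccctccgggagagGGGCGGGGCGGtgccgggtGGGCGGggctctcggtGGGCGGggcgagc
Ccdc3, chr2:5137526-5137775, plus strand: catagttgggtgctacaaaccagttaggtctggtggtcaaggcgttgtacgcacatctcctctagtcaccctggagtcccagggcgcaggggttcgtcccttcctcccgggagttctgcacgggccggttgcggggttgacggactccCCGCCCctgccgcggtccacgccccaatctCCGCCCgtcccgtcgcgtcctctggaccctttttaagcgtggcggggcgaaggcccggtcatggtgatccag
Tnfrsf21, chr17:43016305-43016554, plus strand: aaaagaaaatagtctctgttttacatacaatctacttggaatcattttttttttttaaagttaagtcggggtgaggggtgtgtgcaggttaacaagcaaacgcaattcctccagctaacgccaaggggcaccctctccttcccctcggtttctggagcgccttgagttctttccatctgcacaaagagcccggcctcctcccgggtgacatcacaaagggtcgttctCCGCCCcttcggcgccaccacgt
GC boxes numbering 4, of which the first 2 share bases, stood in the 198 bases before Slc5a3 and Mrps6, against 2 in the 250 bases before Ccdc3 and 1 before Tnfrsf21. The letters occur on either strand in 32.7% of 32851 promoter windows of 250 bases. The G and C content was 75.8%, 65.2% and 50.4%, respectively. None of the 3 windows of 250 bases held the ETS letters CCGGAA (12.03% of all windows) or the AP-1 letters TGANTCA (6.75%), and the NFAT core TGGAAA (18.6%), searched like the others on both strands, was found once, before Tnfrsf21. Such matches describe letters only.

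Library totals were similar between groups, from 19302358 to 29860750 reads assigned to listed genes. Both P14 libraries numbered 1 differed in makeup, with 7.06% and 9.15% of reads from Col1a1 against 13.1% to 17.7% in the other 10. Whole-gene reads of Fgfr1 in the mutant were 75.8% of control at P14 and 70.4% at P16, without overlap on either day. Its log2 difference at P16 was -0.50 (adjusted p = 0.130, limma), a call that the replicate block changed (adjusted p = 0.0109), and that of Fgfr2 was -0.01 (adjusted p = 0.978). The floxed exons are only part of each gene, and values of separate exons were not analysed here. The label of the sorted cells was checked against 10 DP markers, all of them present, whose summed normalized reads were 40743 or more in each library, against at most 617 for the keratinocyte, 452 for the immune, 1335 for the endothelial and 4721 for the skeletal muscle markers in the tables. Markers of neighbouring mesenchyme were far from absent, at 12131 to 37636 for the dermal sheath and 10325 to 29317 for pericytes. Because these are bulk samples, fewer cells of a type and less RNA per cell cannot be told apart.

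At P14, 4 of the 5 genes were lower and 1 was higher in the mutant, which is what selected them. Per-library values below are reads divided by the size factor of the library, named normalized reads, with libraries in the order of replicates 1, 2 and 3. Log2 differences are on log2(normalized reads + 1), mutant minus control, with a standard error (SE) from limma. Of 13334 genes tested at P14, 0.0525% passed an adjusted p of 0.05 (0.015% higher and 0.0375% lower in the mutant), namely these 5 plus Bmp3 and Hey2. Groups did not overlap for 12.7% of the genes, 6.33% with the mutant higher and 6.32% with it lower. Nothing is read from these shares at P14.

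Slc12a2 gave 2066, 2121 and 2484 normalized reads in the P14 controls and 954, 1103 and 1044 in the P14 mutants. Every mutant library was below every control, and the log2 difference was -1.10 (SE 0.10). Slc5a3 gave 2742, 2991 and 2594 against 1431, 1154 and 1139, also without overlap, a log2 difference of -1.17 (SE 0.12). Both cotransporters thus stood at somewhat under 50% of the control mean, at 46.5% and 44.7%.

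Tnfrsf21 gave 2439, 2175 and 2815 normalized reads in P14 controls and 925, 929 and 840 in P14 mutants, a log2 difference of -1.46 (SE 0.11). Kif21b gave 494, 339 and 361 against 124, 121 and 93.3, a log2 difference of -1.80 (SE 0.19). The control libraries of Kif21b were spread more widely than those of the other genes, with a coefficient of variation of 21.1%, yet the lowest control was well above the highest mutant. Ccdc3, the only one of the 5 that was higher in the mutant, gave 304, 322 and 328 normalized reads in the controls and 794, 850 and 769 in the mutants, a log2 difference of 1.34 (SE 0.09).

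**Figure D1:**
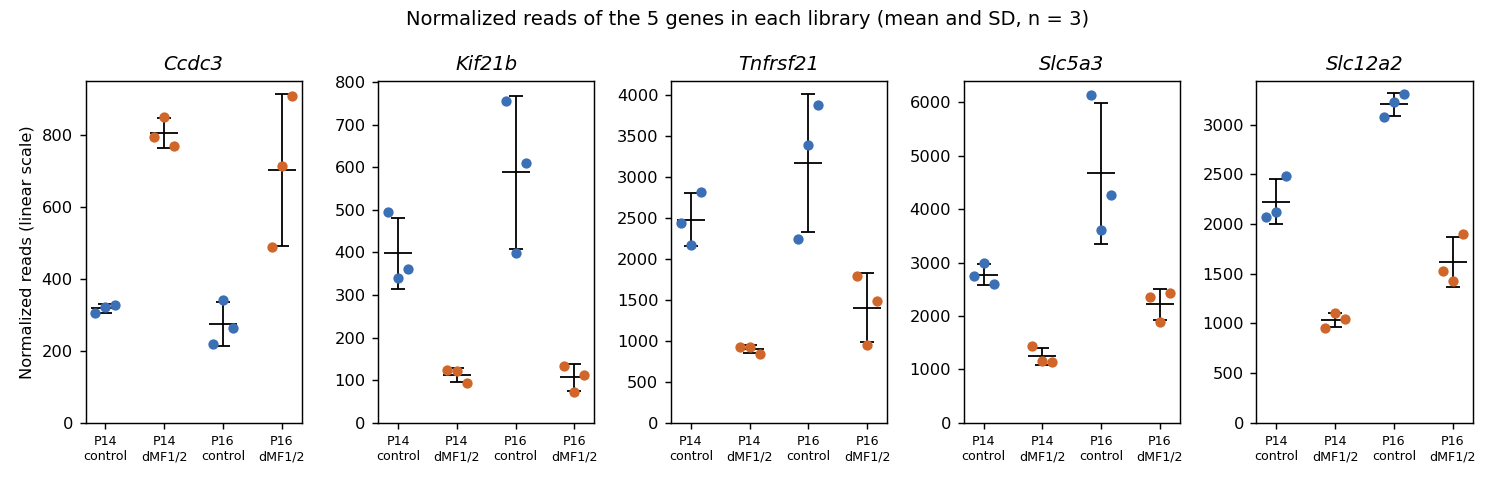
Normalized reads (linear axis from 0, a scale of its own for each gene) of the 5 genes in each of the 12 libraries, 3 per group, with the group mean and SD. In each panel and on each day the 3 mutant points lie wholly on 1 side of the 3 control points, above them for Ccdc3 and below them for the other 4.

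At the edge of the selection, the weakest genes inside were Slc12a2, Slc5a3 and Kif21b, with Bmp3 and Hey2 beside them, all at an adjusted value of 0.0474. The nearest genes outside were Enc1, at 0.0566 with 1126 ± 88.9 normalized reads in controls and 1977 ± 80.8 in mutants (SD, n = 3), and Fam196b, at 0.0697 with 26.1 ± 9.11 and 240 ± 77.8. The boundary therefore separates neighbours of nearly equal rank. The selection also depended on single libraries: with any 1 P14 library left out, between 0 and 2 of the 5 passed, and 2 passed without both libraries numbered 1. The P14 log2 differences themselves moved little, for example between -1.15 and -1.02 for Slc12a2 and between 1.30 and 1.37 for Ccdc3.

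All 5 genes differed at P16 in the direction seen at P14. At that age 13457 genes were tested and 4.32% passed an adjusted p of 0.05, 2.18% higher and 2.14% lower in the mutant, the background against which 5 of 5 stands. Groups did not overlap for 5 of 5 genes, against 24.5% of all genes (12.9% with the mutant higher and 11.6% with it lower). For each gene an exact two-sided permutation test of the group means gave p = 0.1, the smallest that 3 against 3 libraries allow, so the calls rest on limma's variance estimate shared across genes. With the replicate number as a block 5 of 5 also passed, against 10.4% of all genes.

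Slc12a2 gave 3078, 3225 and 3307 normalized reads in P16 controls and 1524, 1430 and 1899 in P16 mutants. The group means of 3204 ± 116 and 1618 ± 248 (SD, n = 3) were far apart relative to either spread, with a log2 difference of -0.996 (SE 0.11, 95% interval -1.26 to -0.73, limma adjusted p = 0.00604). It ranked 45 among the 13457 genes by p. Leaving out any 1 library kept the adjusted p between 0.00897 and 0.0318.

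Kif21b gave 756, 398 and 609 normalized reads in P16 controls and 134, 72.8 and 112 in P16 mutants. This was the largest difference of the 5, with means of 588 ± 180 and 106 ± 31.0 and a log2 difference of -2.45 (SE 0.28, 95% interval -3.10 to -1.81, limma adjusted p = 0.00604). Its adjusted p also stayed below the threshold without any 1 library, between 0.00500 and 0.0318.

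Ccdc3 gave 218, 340 and 264 normalized reads in P16 controls and 487, 714 and 909 in P16 mutants. The mutant libraries were more scattered than at P14, and means of 274 ± 61.6 and 703 ± 211 gave a log2 difference of 1.33 (SE 0.24, 95% interval 0.78 to 1.89, limma adjusted p = 0.0232). The call was lost without control replicate 3 (0.0816), dMF1/2 replicate 2 (0.0741) or dMF1/2 replicate 3 (0.0799).

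Slc5a3 gave 6147, 3608 and 4258 normalized reads in P16 controls and 2348, 1881 and 2423 in P16 mutants. Control replicate 1 was the highest by far, and the means were 4671 ± 1319 and 2217 ± 294, a log2 difference of -1.05 (SE 0.19, 95% interval -1.49 to -0.60, limma adjusted p = 0.0253). The call was lost without control replicate 3 (0.0738) or any of dMF1/2 replicates 1 (0.0627), 2 (0.0765) and 3 (0.0758).

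Tnfrsf21 gave 2238, 3392 and 3878 normalized reads in P16 controls and 1790, 947 and 1481 in P16 mutants. Control replicate 1 and dMF1/2 replicate 1 came closest to each other. With means of 3169 ± 843 and 1406 ± 426 and a log2 difference of -1.18 (SE 0.26, 95% interval -1.79 to -0.58), the limma adjusted p of 0.0479 was just inside the threshold. It was kept without control replicate 1 (0.0241) and lost without any of the other 5 libraries, with adjusted p from 0.0511 to 0.153, so that this call is the least secure of the 5.

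**Figure D2:**
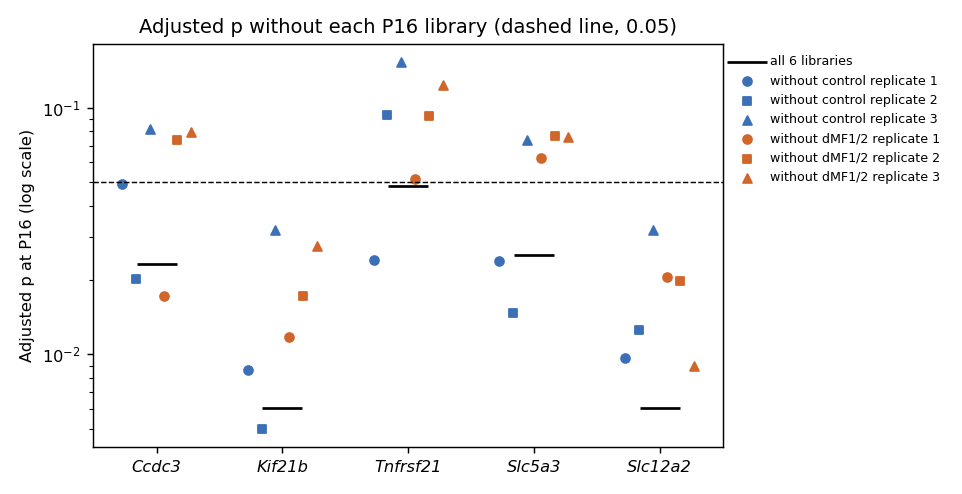
Limma adjusted p at P16 (log axis) for each gene with all 6 libraries (black bar) and without each library in turn (blue, a control left out; orange, a mutant left out), with the threshold of 0.05 dashed. Kif21b and Slc12a2 stay below the line in all 6 fits, whereas Ccdc3 crosses it in 3, Slc5a3 in 4 and Tnfrsf21 in 5.

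**Figure D3:**
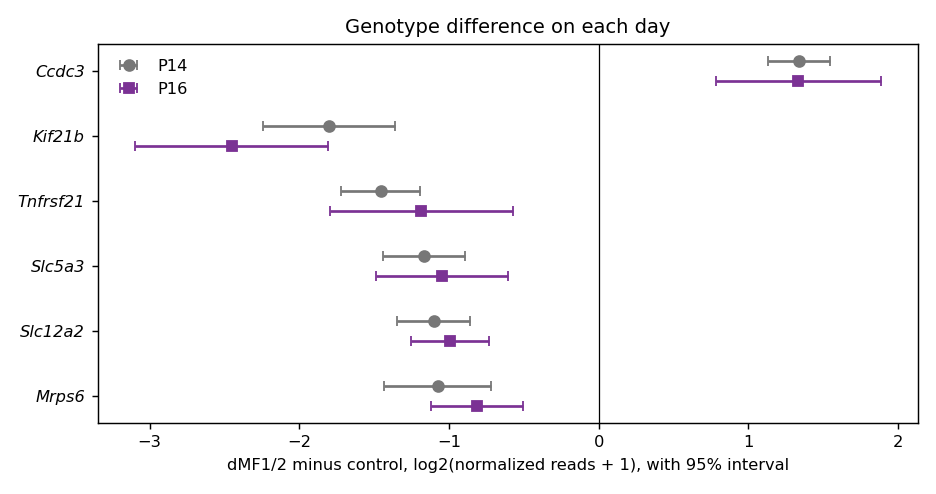
Log2 difference (mutant minus control) of the 5 genes and of Mrps6 at P14 (grey circles) and P16 (purple squares) with 95% limma intervals, the P14 values being those that selected the 5 genes. No interval reaches 0, and the P16 intervals are wider than the P14 ones for each of the 5.

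The size of the genotype difference was nearly the same on both days for 4 of the genes. On a common scale for the 12 libraries, the P16 difference minus the P14 difference was -0.01 (log2) for Ccdc3, 0.10 for Slc12a2, 0.12 for Slc5a3 and 0.27 for Tnfrsf21. Kif21b moved furthest, by -0.65. These values use the libraries that chose the genes and are given without a test.

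Among all 13173 genes tested on both days, 65.3% had the same sign at P14 and P16, and 4.21% kept the sign and passed the test at P16. Of the 964 with an unadjusted p under 0.05 at P14, 89.6% kept the sign and 24.1% also passed at P16. The P14 and P16 libraries are separate samples with no library in common. Of the other genes that passed at P14, Hey2, a Notch target repressor, passed at P16 (log2 difference 2.01, limma adjusted p = 0.0180), whereas Bmp3, a BMP family antagonist, gave -1.13 (limma adjusted p = 0.0668).

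**Figure D4:**
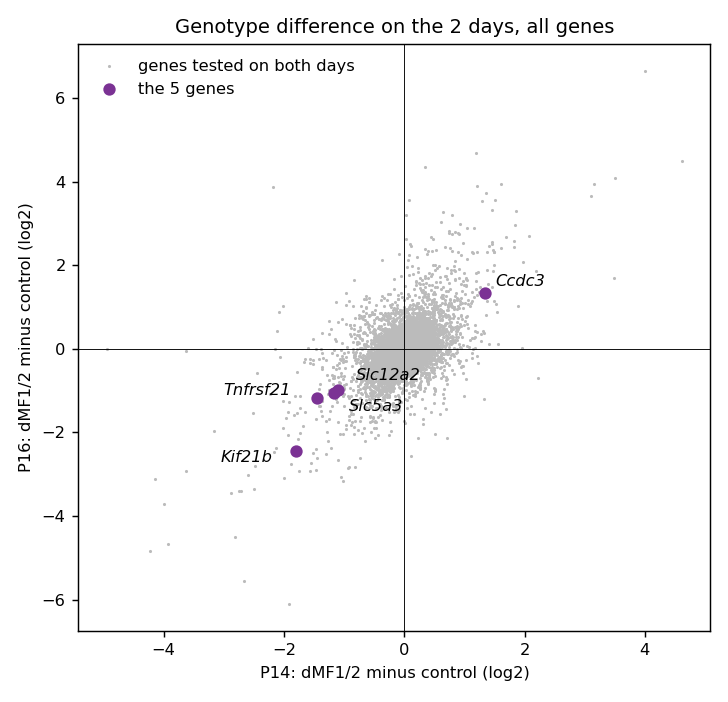
Log2 difference (mutant minus control) at P14 (horizontal) and P16 (vertical) for the 13173 genes tested on both days (grey), with the 5 genes in purple. Ccdc3 lies in the upper right and the other 4 in the lower left, away from the dense centre, and Kif21b lies lowest of the 5.

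The difference between ages was not alike in the 5 genes. Slc5a3 changed from P14 to P16 by 0.68 (log2, SE 0.18) in controls and by 0.79 in mutants, and Slc12a2 by 0.49 (SE 0.11) and 0.59, in both cases with no overlap between the days within either genotype. That share among all genes was 17.5% in controls and 13.2% in mutants for values higher at P16. Their 4 groups fell in the same order, P16 control, P14 control, P16 mutant and P14 mutant, with no overlap between any neighbours. On the common scale Slc5a3 averaged 4604, 2813, 2174 and 1256 rescaled reads in that order, and Slc12a2 averaged 3157, 2254, 1586 and 1045. Mutant cells at P16 were thus still below control cells at P14, by a log2 difference of -0.38 for Slc5a3 and -0.51 for Slc12a2.

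Tnfrsf21 differed between the days by 0.29 (log2, SE 0.23) in controls and 0.56 in mutants, Ccdc3 by -0.28 (SE 0.20) in each genotype, and Kif21b by 0.49 (SE 0.27) in controls and -0.16 in mutants. With 1 library left out these values ranged widely. They were 0.12 to 0.52 in controls and 0.36 to 0.81 in mutants for Tnfrsf21, and -0.44 to -0.12 and -0.49 to -0.04 for Ccdc3. For Kif21b they were 0.29 to 0.75 in controls and -0.35 to 0.0856 in mutants, the sign turning without P16 dMF1/2 replicate 2. For these 3 genes the 2 days overlapped within both genotypes, so that genotype alone set the order of the non-overlapping pairs. Ccdc3 ranked from P14 mutant (813 ± 41.7 rescaled reads) through P16 mutant (690 ± 208) and P14 control (322 ± 12.8) to P16 control (270 ± 60.2). Tnfrsf21 ranked from P16 control (3124 ± 833) through P14 control (2510 ± 325) and P16 mutant (1378 ± 415) to P14 mutant (908 ± 52.0). Kif21b ranked from P16 control (580 ± 178) through P14 control (403 ± 84.7) and P14 mutant (114 ± 17.3) to P16 mutant (104 ± 30.1).

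Per kilobase of merged exon, the genes span a broad range of abundance. In P14 controls Tnfrsf21 was the most abundant at 603 normalized reads per kilobase, above 93.1% of genes, followed by Slc5a3 (254), Slc12a2 (204) and Ccdc3 (119). Kif21b, at 32.7, stood at the percentile of 36.9 and was at 9.25, a percentile of 21.9, in P14 mutants. In P14 mutants the order changed, with Ccdc3 (301) above Tnfrsf21 (219), Slc5a3 (114) and Slc12a2 (94.7). At P16 the control levels per kilobase were 771 for Tnfrsf21, 428 for Slc5a3, 293 for Slc12a2, 103 for Ccdc3 and 48.2 for Kif21b.

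Mrps6, which shares its start region with Slc5a3, was lower in the mutant as well. It gave 363, 304 and 326 normalized reads in P14 controls and 184, 157 and 132 in P14 mutants. At P16 it gave 356, 272 and 346 against 193, 185 and 173, without overlap and with a log2 difference of -0.81 (SE 0.13, limma adjusted p = 0.0174). On the common scale Mrps6 averaged 336 ± 30.0 rescaled reads at P14 and 320 ± 46.0 at P16 in controls, and 159 ± 26.6 and 180 ± 9.98 in mutants, the days overlapping in both genotypes. The 159 exonic bases shared by the pair are a small part of the 10913 of Slc5a3, and the part of unspliced Mrps6 RNA in the Slc5a3 reads was not tested.

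Among the other genes of cotransport and volume control, the closest relative of Slc12a2 differed most. Of 24 tested genes of this list, from cation-chloride cotransporters to WNK kinases and LRRC8 channels, 2 passed at P16, both lower, against 2.14% of all genes lower, and the median log2 difference was -0.03 against -0.0043 over all genes. Slc12a1, that relative, best known as the NKCC2 cotransporter of the kidney, gave 4622, 3121 and 5785 normalized reads in P16 controls and 1087, 133 and 491 in P16 mutants, a log2 difference of -3.40 (SE 0.65, limma adjusted p = 0.0285). Every control was above every mutant, though the mutants were widely scattered. At P14 Slc12a1 gave 375, 332 and 778 against 69.8, 48.0 and 91.1, a log2 difference of -2.75 (limma adjusted p = 0.106). The replicate block, by which 1.68% of all genes passed at P14, changed that call (adjusted p = 0.00117). On the common scale its control mean at P16 was 8.86 times that at P14.

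Lrrc8d, a subunit of the volume-regulated anion channel, was 1385 ± 207 in P16 controls and 743 ± 176 in P16 mutants (SD, n = 3), a log2 difference of -0.91 (limma adjusted p = 0.0320). The other LRRC8 genes went both ways, with log2 differences of -0.59 for Lrrc8a, -0.20 for Lrrc8c, -0.93 for Lrrc8e and 0.90 for Lrrc8b. None of these passed by limma, and Lrrc8a passed with the replicate block (adjusted p = 0.00548). Without control replicate 3 none of the 24 passed, and without control replicate 1, dMF1/2 replicate 2 or dMF1/2 replicate 3 only 1 was lower and passed. With a replicate block, by which 10.4% of all genes passed, or with DESeq2, by which 1121 of 13457 passed, 5 of the 24 passed, 4 lower and 1 higher.

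Of 14 tested genes of myo-inositol and other osmolytes, 0 passed at P16 by limma, with a median log2 difference of -0.29. At an unadjusted p under 0.05, which 19% of all genes reached at P16, there were 3, all lower. With the replicate block 3 passed (10.4% of all genes), with DESeq2 2 (1121 of 13457 genes in all) and with edgeR 0, and 1 passed by limma with a pseudocount of 10 or in the fit of all 12 libraries. The nearest was Impa2, an inositol monophosphatase, at 105 ± 13.0 in controls and 50.9 ± 17.7 in mutants (limma adjusted p = 0.0527, and 0.0142 with the replicate block).

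For relatives of Tnfrsf21 and Kif21b the counts that passed at P16 by limma without the block are to be read against 4.32% of all genes. Of 33 tested genes of the TNF receptor superfamily and death signalling, 0 passed at P16 by limma. An unadjusted p under 0.05 was reached by 5 (2 higher, 3 lower), against 19% of all genes. With the replicate block 2 passed (10.4% of all genes), with DESeq2 2 (1121 of 13457 genes in all) and with edgeR 0 (603 of 13457). The median log2 difference of the 33 was -0.06. Of 27 transport kinesins and light chains, 1 passed, Kif13b, at 1576 ± 98.8 in controls and 2077 ± 32.5 in mutants (log2 difference 0.40, limma adjusted p = 0.0314), a call lost without any 1 library and in the fit of all 12 libraries. With the replicate block 4 of the 27 passed, against 10.4% of all genes. Kif21a, the paralogue of Kif21b, was 152 ± 61.7 and 125 ± 97.9 (log2 difference -0.47, limma adjusted p = 0.698), with groups that overlapped. At P14 it was 270 ± 119 and 128 ± 69.9, also overlapping (log2 difference -1.08, limma adjusted p = 0.684, and 0.0481 with the replicate block). None of 8 mitotic kinesins passed by limma with or without the block, DESeq2 or edgeR, and 0 had an unadjusted p under 0.05. Of 20 NF-kB response genes 0 passed by limma, and 6 had an unadjusted p under 0.05, all lower, against 19% of all genes in either direction. With the replicate block 6 passed (10.4% of all genes), with DESeq2 4 (1121 of 13457 genes in all) and with edgeR 1 (603 of 13457). Groups did not overlap for 4 of the 20, against 24.5% of all genes, and the list median was -0.35.

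Some FGF-ERK response genes were also lower at P16. Of 16 tested, 4 passed at P16, all lower, against 2.14% of all genes lower, with a median log2 difference of -0.34 over the list. Etv4 fell from 231 ± 42.0 to 42.2 ± 1.17 normalized reads (log2 difference -2.41, limma adjusted p = 0.00154) and Etv1 from 1130 ± 122 to 352 ± 62.6 (-1.69, limma adjusted p = 0.00329). Etv5 fell by 0.99 on the log2 scale (limma adjusted p = 0.00841) and Dusp6 by 0.996 (limma adjusted p = 0.0125). With a library left out 3 or 4 passed, with a replicate block 8 (10.4% of all genes) and with DESeq2 7 (1121 of 13457 genes in all). At P14 0 of the 16 passed by limma or edgeR, 5 passed with the replicate block (1.68% of all genes) and 4 with DESeq2 (207 of 13334 genes in all), with a list median of -0.46. At that age 8 had an unadjusted p under 0.05, all lower, against 7.32% of all genes in either direction.

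The profile of Kif21b over the 12 libraries was most like those of Etv1 (Pearson r = 0.969) and, among the next 4, Etv4 (0.952), together with Fhl3, Sh2b3 and Sept11. Likeness was ranked over 12558 genes with a mean of at least 20 rescaled reads. The 12 points fall into 4 groups and share their genotype, age and scaling, so that r also reflects how far the groups lie apart. Ccdc3 was most like Rgs6 (0.955), with Cdk5rap2, Ndp and Hey2 also among its nearest.

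Tnfrsf21 was most like Vldlr (r = 0.965), a lipoprotein and reelin receptor, and the secreted Wnt antagonist Dkk2 (0.961), then Slc26a7, an anion exchanger, Lcn2 and 6430548M08Rik. Slc12a2 was most like the orphan nuclear receptor Nr4a2 (0.952), then Adamts4, Ptprg, Plcg2 and again Dkk2 (0.941). Dkk2 itself had log2 differences of -1.27 at P14 and -1.09 at P16, given as a description since likeness to these genes chose it. Slc5a3 was most like Stambpl1 (0.975), with Pitpnm1, Txnrd1 and, as the fifth, Slc12a2 (0.930) also among its nearest. Between the members, r ranged from 0.838 for Tnfrsf21 with Slc5a3 to 0.934 for Tnfrsf21 with Slc12a2 among the 4 lower genes, and from -0.942 to -0.864 for Ccdc3 with each of them.

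**Figure D5:**
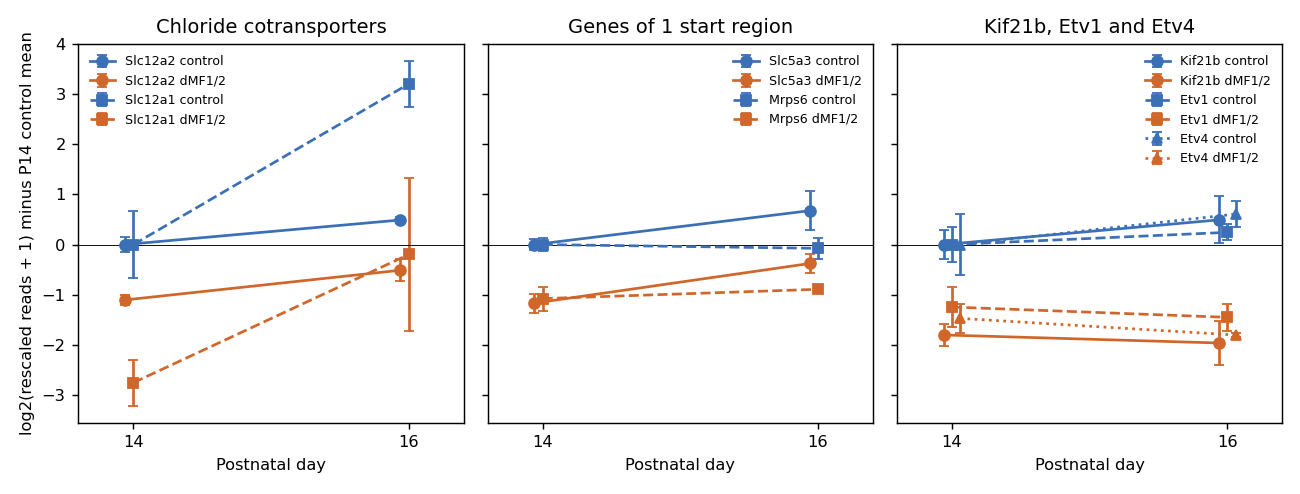
Mean log2(rescaled reads + 1) at P14 and P16 relative to the P14 control mean of each gene, with the SD (n = 3), in controls (blue) and mutants (orange), for Slc12a2 with Slc12a1, Slc5a3 with Mrps6, and Kif21b with Etv1 and Etv4. Slc12a1 lies far above its P14 level at P16 in both genotypes and Slc12a2 slightly above it, Slc5a3 is higher at P16 while Mrps6 is near its P14 level, and Kif21b, Etv1 and Etv4 are separated by genotype on both days.

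The summed markers of the DP, of pericytes and of tissue dissociation did not overlap between genotypes at P16. Only 1 of 5 pericyte and 1 of 10 dissociation genes passed by limma (4.32% of all genes), and 2 and 4 of them, respectively, did not overlap (24.5% of all genes). The summed normalized reads of 5 pericyte markers were 22571 to 29317 in P16 controls and 10325 to 14692 in P16 mutants, mostly through Cspg4 (log2 difference -2.05, limma adjusted p = 0.00604), while the defining marker Rgs5 gave -0.55 (limma adjusted p = 0.189). At P14 the pericyte sums overlapped (11038 to 18170 and 10668 to 13617), although Cspg4 was lower without overlap (5130 ± 1965 against 2701 ± 219, log2 difference -0.84, limma adjusted p = 0.549). The sums of 10 dissociation stress genes were 351454 to 493107 in P16 controls and 304574 to 327960 in P16 mutants, and overlapped at P14. The 10 DP markers summed to 40743 to 66318 in P16 controls and 68117 to 97025 in P16 mutants, and their sums overlapped at P14. By limma 3 of the 10 passed at P16, Alpl and Fgf10 higher and Crabp1 lower, against 4.32% of all genes. Groups did not overlap for 8 of the 10, against 24.5% of all genes. An unadjusted p under 0.05 was reached by 8 (7 higher, 1 lower), against 19% of all genes. The median log2 difference of the 10 was 0.97, against -0.0043 over all genes. Sums of the dermal sheath, keratinocyte, melanocyte, endothelial, immune, Schwann, skeletal muscle and adipocyte markers overlapped between genotypes on both days. The adipocyte sum joins 2 genes that differed in opposite directions at P16, Plin1 (62.7 ± 23.2 against 331 ± 67.6, log2 difference 2.43, limma adjusted p = 0.00604) and Fabp4 (-1.03, limma adjusted p = 0.109). With the replicate block both passed, against 10.4% of all genes. The part of these shifts in the P16 differences of the 5 genes was not tested.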

How the data were processed

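FACS-sorted YFP-positive DP cells of 12 libraries (3 per genotype and day) were analysed as single-end RNA-seq. The authors used Trimmomatic for trimming and TopHat2 (version 2) for mapping to mm10, counted reads per Ensembl gene (GRCm38.p4) with HTSeq and normalized them with DESeq2. The deposited values are a normalized signal, reads divided by the size factor that the authors estimated from the 6 libraries of a day. All values (100% in each library, tolerance 0.01) were whole multiples of a constant per library, so whole reads were recovered. The 5 deposited comparison columns of each table (mean, fold change, its error, statistic and p-values) were not used.

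Genotypes were compared within a day by limma 3.58.1 with a trended prior (R 4.3.3) on log2(signal + 1), leaving out genes whose mean was under 10, with Benjamini-Hochberg adjustment over all genes tested and a threshold of 0.05. Days were compared after rescaling the 12 libraries by median of ratios over 14986 shared genes. The members and gene lists were chosen with earlier results of these data known. Genes named are the 5 members, the 5 genes most correlated with each, the genes around the P14 threshold, the targeted, overlapping and paralogous genes, and the listed genes that passed at P16 (up to 4 a list). The nearest gene outside the threshold and some further listed genes were added after values were seen. Some genes that meet these criteria are not reported here. Etv1, Etv4, Slc12a1 and Mrps6 were plotted after values were seen. The scripts were tested on simulated data. The labels give replicate numbers and a letter per library that same-numbered libraries of both genotypes share within a day, without saying what it marks. Libraries of the same number deviated together within a day (correlation over genes of 0.586, 0.389 and 0.304 at P14 and 0.256, 0.293 and 0.311 at P16), so the number was also used as a block. Alternatives were edgeR 4.0.16, DESeq2 1.42.0, other scalings, pseudocounts and filters, and leaving out libraries. The p-values measure the spread between these libraries.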

Additional observations from a re-analysis of the deposited data

How the results depend on the processing

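The P16 differences of the 5 genes kept their direction and stayed past the threshold under 9 alternatives with all libraries (pseudocounts of 0.1 and 10, no filter, at least 10 reads in every library, TMM scaling, the replicate block, DESeq2, edgeR, and a fit of all 12 libraries). The widest range was that of Kif21b, from -2.48 to -2.35 on the log2 scale. With the replicate block 5 of 5 genes passed, and it changed no call of the 5. With 1 library left out, directions held and the count of the 5 genes that passed was 2 to 5, with log2 differences of 1.13 to 1.58 for Ccdc3, -2.71 to -2.20 for Kif21b, -1.42 to -0.92 for Tnfrsf21, -1.21 to -0.83 for Slc5a3 and -1.12 to -0.91 for Slc12a2. The cause of each lost call was not tested. The change of Kif21b from P14 to P16 in mutants turned from -0.16 to 0.0856 without P16 dMF1/2 replicate 2 (range -0.35 to 0.0856). P14 differences and the other changes with age moved by less than the replicate SD, several of the latter by over 1.5 times.

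Counts over all genes depended more on the method. At P16, 582 genes passed against 1403 with the replicate block, 1121 with DESeq2 and 149 to 683 with a library left out. At P14, 7 passed against 224 with the block, 207 with DESeq2, 11 in the fit of all 12 libraries and 0 to 18 with a library left out, and 976 had an unadjusted p under 0.05. List counts under the block and DESeq2, alternatives added after seeing the data, were higher for some lists and equal for others. Limits are 3 libraries per group and whole-gene reads, so neither overlapping transcripts nor the deleted exons could be separated.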
